A study of Rattus norvegicus with 24 samples.

Results

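Levels of 10 circadian clock genes were followed in messenger RNA from the heart septum of 24 Sprague-Dawley rats. The genes were chosen by Ensembl identifier with a check of the chromosome, and all 10 identifiers lay on the expected chromosome. They are 10 of the 30562 genes in the count table, and all 10 were among the 17347 genes that passed the filter on low counts.

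Every rat had undergone cardiac ischemia-reperfusion, and the tissue was taken on day 28 after it. The rats formed 4 groups of 6. The vehicle group had intact brown adipose tissue (BAT, the fat depot that burns fuel for heat) and received vehicle by the intracerebroventricular route. The leptin group also had intact BAT and received leptin, the fat-cell hormone that acts on the brain, by that route. The ablation group (BATx) and the denervation group (BATsx, loss of the sympathetic nerves of BAT) both received leptin, so no rat with an operated BAT received vehicle. The labels number each rat, so each library stands for a separate animal. The hour of tissue collection is not in the labels used here.

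On the mRatBN7.2 assembly used for the counts, the activator Bmal1 (ENSRNOG00000014448) lies on chr1:167331633-167430231 and Clock (ENSRNOG00000002175) on chr14:31908566-31990400. The repressors are Per1 (ENSRNOG00000007387) on chr10:53805535-53814431, Per2 (ENSRNOG00000020254) on chr9:92007296-92049459, Per3 (ENSRNOG00000018413) on chr5:161459533-161495607 and Cry1 (ENSRNOG00000006622) on chr7:18529823-18594091. The nuclear receptors are Nr1d1 (ENSRNOG00000009329) on chr10:83728318-83735705 and Nr1d2 (ENSRNOG00000046912) on chr15:7524257-7550553. The output factors are Dbp (ENSRNOG00000021027) on chr1:96175440-96180745 and Tef (ENSRNOG00000019383) on chr7:113317283-113341783. Counts are over all exons of each gene, and Per2, Per3 and Nr1d1 lie on the minus strand.

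The clock is a transcription loop found in almost every cell, the cardiomyocyte included. The activators Bmal1 and Clock pair up on E-box sequences and switch on the repressors Per1, Per2, Per3 and Cry1, whose proteins then block the activators. The same pair drives Nr1d1 and Nr1d2 (Rev-erb alpha and beta), which repress Bmal1 through ROR elements (ROREs), and the output factors Dbp and Tef, which bind D-box sequences. In the rodent heart, messenger RNA of Bmal1 is known to peak at about the opposite time of day from that of Dbp, Nr1d1 and Per3, with Per2 and then Cry1 following later than these.

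Promoter windows are shown first because the loop runs through short sequences in them. RefSeq entries on the GRCr8 assembly were found for 9 of the 10 genes (11 entries), all but Cry1. The 250 bases before the annotated start were searched on both strands for the E-box CACGTG, the variant E-box CACGTT, the D-box TTATGTAA or TTACGTAA and the RORE core AGGTCA. None of these motifs overlapped another in the windows shown. The 5 windows below belong to genes of the covariation result described further on, or to Nr1d1, and they hold a motif, which is in capitals. The Bmal1 window is chr1:176766078-176766327 on the plus strand, with AGGTCA from 15 to 10 bases before the start. The Per2 window is chr9:99496994-99497243 on the minus strand, with TTATGTAA from 192 to 185 and CACGTT from 62 to 57 bases before the start. The windows of Nr1d1 are chr10:84231813-84232062 and chr10:84229455-84229704 on the minus strand, the first with CACGTT on the opposite strand and the second with CACGTG. The Tef window is chr7:115206577-115206826 on the plus strand, with CACGTG from 198 to 193 bases before the start.
Bmal1: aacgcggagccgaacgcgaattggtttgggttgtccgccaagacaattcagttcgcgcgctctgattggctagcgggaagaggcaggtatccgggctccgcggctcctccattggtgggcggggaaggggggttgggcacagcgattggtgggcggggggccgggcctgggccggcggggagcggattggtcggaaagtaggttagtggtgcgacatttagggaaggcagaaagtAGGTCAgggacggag
Per2: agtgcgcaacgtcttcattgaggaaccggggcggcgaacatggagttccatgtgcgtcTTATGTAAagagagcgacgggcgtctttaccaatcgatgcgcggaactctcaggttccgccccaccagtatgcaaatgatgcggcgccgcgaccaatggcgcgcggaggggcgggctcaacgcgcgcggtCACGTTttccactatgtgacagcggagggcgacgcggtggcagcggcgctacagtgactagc
Nr1d1 entry 1: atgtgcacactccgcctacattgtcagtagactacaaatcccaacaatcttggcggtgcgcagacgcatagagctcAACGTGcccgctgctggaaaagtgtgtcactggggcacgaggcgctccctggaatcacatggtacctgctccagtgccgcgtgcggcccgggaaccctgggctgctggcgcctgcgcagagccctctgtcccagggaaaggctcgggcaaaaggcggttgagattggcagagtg
Nr1d1 entry 2: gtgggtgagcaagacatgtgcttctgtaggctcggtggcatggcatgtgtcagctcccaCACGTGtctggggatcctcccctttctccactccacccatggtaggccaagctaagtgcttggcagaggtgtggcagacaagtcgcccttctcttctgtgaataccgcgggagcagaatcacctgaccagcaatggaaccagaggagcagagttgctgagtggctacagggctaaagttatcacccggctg
Tef: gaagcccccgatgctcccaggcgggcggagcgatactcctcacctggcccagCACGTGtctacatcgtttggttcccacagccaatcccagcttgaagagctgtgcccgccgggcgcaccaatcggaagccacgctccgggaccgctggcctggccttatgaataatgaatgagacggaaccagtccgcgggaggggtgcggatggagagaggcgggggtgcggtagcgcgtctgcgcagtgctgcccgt
The Nr1d2 window also held AGGTCA, from 187 to 182 bases before its start. The windows of Clock, Per1, Per3 and Dbp held none of these letter strings, which says nothing of binding elsewhere. Among the 33469 RefSeq promoter windows of the same length, 5.59% held CACGTG, 4.07% held CACGTT, 0.932% held a D-box and 14.1% held AGGTCA. A match of letters is a description and not a binding site.

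Counts came from libraries of 71587993 to 122910706 assigned reads, of which 23.1% to 45.9% were mitochondrial. An earlier analysis of these data found that the 7 rats with the highest numbers (3 vehicle, 1 leptin, 1 ablation, 2 denervation) stood apart from the other 17 across most of the genes. They are called high-numbered rats below, the others low-numbered, and comparisons are given with and without a term for the set.

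On a scale corrected for exonic length and library size (RPKM), the median over 24 libraries was highest for Per1 at 40.4. The outputs Dbp (32.8 RPKM) and Tef (25.7 RPKM) and the repressor Per2 (21.4 RPKM) came next. The Rev-erb genes followed, Nr1d2 with a median of 18.9 RPKM and Nr1d1 with 16.6 RPKM. Per3 (8.77 RPKM), Bmal1 (3.58 RPKM), Clock (2.55 RPKM) and Cry1 (2.32 RPKM) were lowest. The order places the activators and Cry1 at the bottom, but the ranges between libraries overlapped between all neighbours in it.

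Bmal1 had the widest spread of the 10. Its level in CPM, the count scaled to library size, ran from 2.30 in vehicle replicate 4 to 73.6 in leptin replicate 6, a 32-fold range. In the vehicle group the lowest, median and highest CPM of Bmal1 were 2.30, 5.61 and 22.9. In the leptin group they were 4.62, 12.2 and 73.6. In the ablation group they were 4.41, 21.3 and 27.3, and in the denervation group 4.41, 10.7 and 23.0. All 4 groups overlapped, and each held libraries under 5 CPM and libraries over 20 CPM. Clock, the partner of Bmal1, lay between 10.8 and 55.5 CPM, and its 3 highest libraries (vehicle replicate 6 at 55.5, leptin replicate 6 at 39.6 and denervation replicate 5 at 37.9) were all from high-numbered rats.

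The output gene Dbp spanned 11.0 CPM in leptin replicate 6 to 232 CPM in vehicle replicate 2, a 21.1-fold range. Its lowest, median and highest CPM were 49.5, 115 and 232 in the vehicle group and 11.0, 67.0 and 109 in the leptin group. They were 30, 75.6 and 119 in the ablation group and 64.1, 120 and 209 in the denervation group. The groups overlapped. The library with the most Bmal1, leptin replicate 6, had the least Dbp of all 24. Tef, a related output factor, lay between 48.8 CPM in ablation replicate 4 and 206 CPM in vehicle replicate 4. Its mean was 138 ± 40.2 CPM in the vehicle group, 100 ± 24.1 in the leptin group, 84.6 ± 47.9 in the ablation group and 106 ± 24.9 in the denervation group (SD, n = 6 each), and the groups overlapped.

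Among the repressors, Per3 was lowest in leptin replicate 6, at 9.00 CPM, and 14.7-fold higher than that in vehicle replicate 1. In the vehicle group its lowest and median CPM were 46.1 and 66.0. The lowest, median and highest CPM of Per3 in the leptin group were 9.00, 90 and 112. They were 22.5, 40.9 and 83.8 in the ablation group and 39.9, 74.1 and 109 in the denervation group. Leptin replicate 6 was again at the bottom, and the groups overlapped. Per2 ran from 40.5 to 377 CPM, with group medians of 111 in the vehicle group, 255 in the leptin group, 117 in the ablation group and 98.7 in the denervation group. The 5 highest Per2 values, 377, 352, 276, 240 and 234 CPM, came from the 5 rats numbered 53 to 62, which are leptin replicates 1 to 4 and denervation replicate 1. Cry1, with 1.76 to 15.0 CPM, and Per1, with 64.2 to 238 CPM, completed the repressors, and the groups overlapped for both.

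Nr1d1 had the clearest group pattern. In the leptin group its 6 libraries held 14.4, 10.2, 24.2, 17.0, 49.5 and 48.0 CPM (replicates 1 to 6). In the vehicle group the lowest, median and highest CPM of Nr1d1 were 45.9, 76.0 and 107. In the ablation group they were 34.1, 56.9 and 66.9, and in the denervation group 35.2, 87.9 and 128. Leptin replicates 1 to 4 were the 4 lowest of all 24 libraries, whereas leptin replicates 5 and 6 lay within the ranges of the other groups. Of the exonic bases of Nr1d1, 31.9% (1094 bases) overlap a gene on the other strand, and the counting used no strand option, so part of its reads may belong to that gene. Its relative Nr1d2, whose exons overlap no other gene, had group medians of 109 CPM (vehicle), 73.4 (leptin), 74.1 (ablation) and 107 (denervation).

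**Figure D1:**
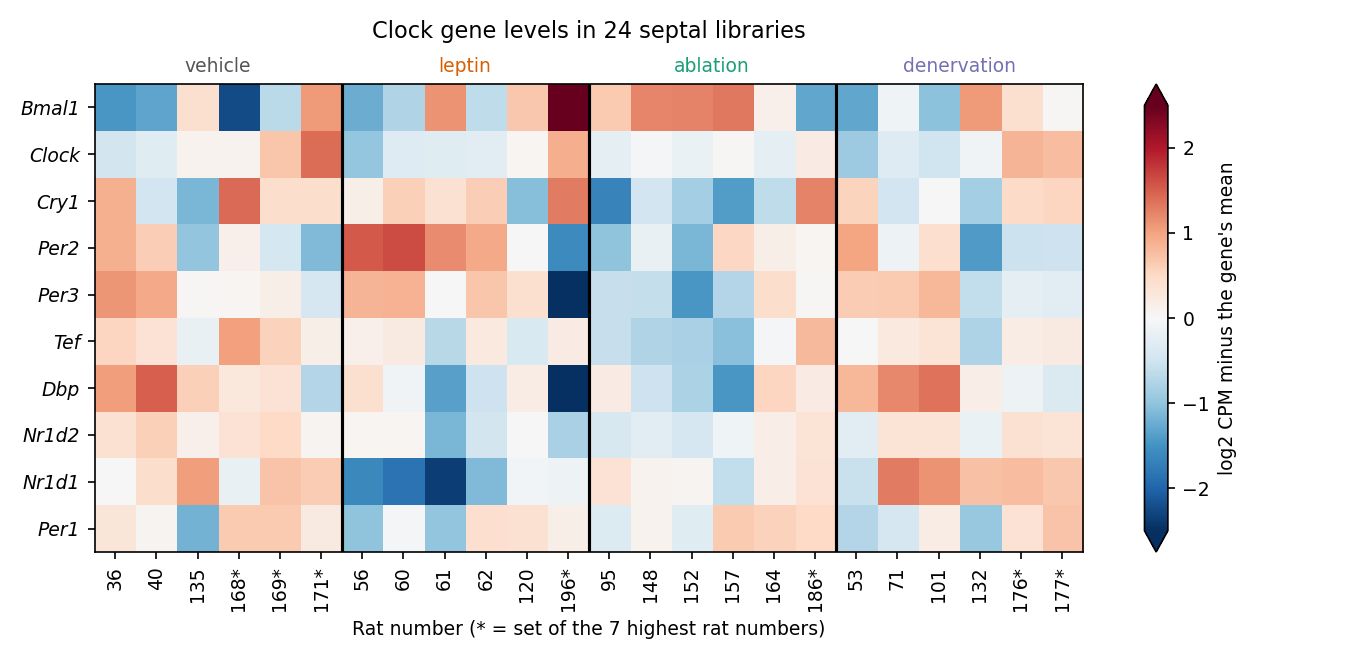
Level of each clock gene in the 24 libraries, as log2 CPM minus the mean of that gene (colour), with libraries in columns by group and rat number and an asterisk on the 7 high-numbered rats. Bmal1 and the rows of Per2, Per3, Tef and Dbp have opposite colours in most columns, with the extremes in leptin replicate 6 (the last leptin column: Bmal1 at 73.6 CPM, Dbp at 11.0 CPM).

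Once group and rat-number set had been removed, the residual SD of Bmal1 was 1.20 on the log2 scale, larger than that of 99.3% of the 13383 genes with a mean of at least 1 CPM. The same residual SD was 0.85 for Per2, 0.78 for Per3, 0.75 for Dbp, 0.65 for Cry1 and 0.64 for Nr1d1, each larger than in at least 92.2% of genes. Per1 (0.53), Tef (0.44), Clock (0.36) and Nr1d2 (0.35) were closer to the median over all genes, 0.30. The clock genes thus differed between rats of the same group and set by more than a typical gene. The difference of log2 CPM between Dbp and Bmal1 ran from 5.73 in vehicle replicate 2 to −2.74 in leptin replicate 6.

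The next question was whether genes of opposite daily phase moved oppositely between rats within groups. The slope of each gene on the log2 CPM of Bmal1 was fitted with group and rat-number set in the model (edgeR quasi-likelihood test, Benjamini-Hochberg adjustment over all genes). Clock, the activator partner, rose with Bmal1, while Per2, Per3, Dbp and Tef fell as Bmal1 rose. That is 5 of the other 9 clock genes called, against 0.184% of all 17346 genes. A positive slope was called for 1 clock gene, against 0.0865% of all genes, and a negative slope for 4, against 0.098% of all genes.

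The slope of Clock was 0.26 ± 0.04 log2 units per log2 unit of Bmal1 (SE, adjusted p = 0.00253). Per3 had a slope of −0.52 ± 0.08 (adjusted p = 0.00267) and Per2 a slope of −0.52 ± 0.10 (adjusted p = 0.0192). Among the outputs, Dbp had a slope of −0.50 ± 0.09 (adjusted p = 0.00665) and Tef of −0.30 ± 0.05 (adjusted p = 0.00279). These 5 genes thus split by arm, the activator going with Bmal1 and the repressors and outputs against it. Cry1 (−0.31, adjusted p = 0.184), Nr1d2 (−0.18, adjusted p = 0.188), Nr1d1 (0.20, adjusted p = 0.403) and Per1 (−0.13, adjusted p = 0.556) did not pass the threshold.

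The slopes of the 5 genes kept their sign when any library was left out, and those of Clock and Per3 passed the threshold in all 24 such fits. Without ablation replicate 6 only 2 genes were called, Clock and Per3, and without leptin replicate 6 only 3, Clock, Per3 and Tef. Per2 also missed the threshold without vehicle replicate 3 (adjusted p = 0.0547) or denervation replicate 1 (adjusted p = 0.0525). With no term for the rat-number set, 0 clock genes were called, the slopes of the 5 being 0.30 for Clock, −0.57 for Per2, −0.56 for Per3, −0.54 for Dbp and −0.25 for Tef. Their adjusted p ranged from 0.0832 to 0.531, and 0.0346% of all genes (6 genes) were called. In the 17 low-numbered rats alone the slopes were 0.26 for Clock, −0.59 for Per2, −0.53 for Per3, −0.47 for Dbp and −0.42 for Tef. In that fit 0 of them were called (edgeR adjusted p from 0.154 to 0.682), against 0.0112% of all genes.

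**Figure D2:**
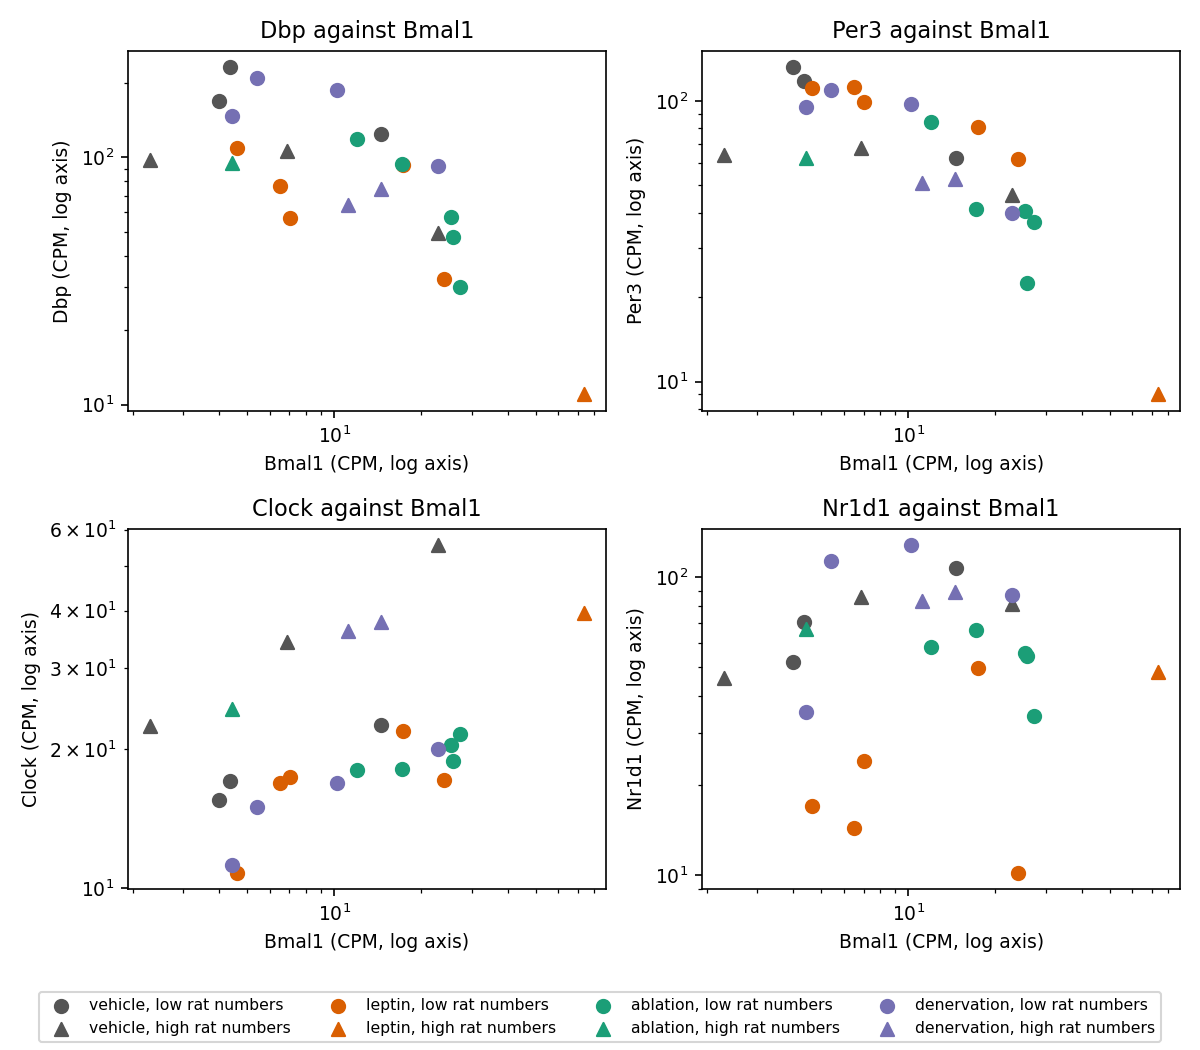
Dbp, Per3, Clock and Nr1d1 (vertical axes) against Bmal1 (horizontal axes) in CPM on log axes, each point a library, coloured by group, with circles for the 17 low-numbered and triangles for the 7 high-numbered rats. Dbp and Per3 fall and Clock rises along Bmal1 within both sets, while the 4 lowest Nr1d1 points (10.2 to 24.2 CPM) are leptin libraries spread along Bmal1.

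Dbp was taken as the reference next. Its relation with Bmal1 is the one given above, seen from the other side in the same libraries, so it is not separate evidence. Bmal1 fell as Dbp rose, with a slope of −1.24 ± 0.20 (SE, edgeR adjusted p = 0.0194), and Per3 rose with Dbp, with a slope of 0.78 ± 0.13 (adjusted p = 0.0194). These were 2 of the other 9 clock genes, against 0.0288% of 17346 genes (5 genes). In each direction that is 1 clock gene, against 0.0115% of all genes called with a positive slope and 0.0173% with a negative one. The slopes of Tef (0.45, adjusted p = 0.0683), Nr1d2 (0.35, adjusted p = 0.136) and Clock (−0.27, adjusted p = 0.890) did not pass. Neither Bmal1 nor Per3 passed without leptin replicate 4, leptin replicate 6, ablation replicate 6 or denervation replicate 4. The adjusted p over these 4 fits ran from 0.0769 to 0.274 for Bmal1 and from 0.0553 to 0.266 for Per3. Tef passed without leptin replicate 6 (adjusted p = 0.0426) or leptin replicate 5 (adjusted p = 0.011), and Nr1d2 without ablation replicate 4 (adjusted p = 0.011). In the low-numbered rats alone 0 clock genes and 0 of all genes were called, with slopes of −0.91 for Bmal1 and 0.62 for Per3.

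Likeness to Bmal1 was also ranked over all 13382 other genes with a mean of at least 1 CPM, as the Pearson correlation of log2 CPM over 24 libraries after removal of group and set. These correlations are descriptions over libraries that share depth and preparation. Clock had the third most positive correlation, 0.85. Tef (−0.84), Per3 (−0.84), Dbp (−0.80) and Per2 (−0.79) ranked 6, 7, 11 and 12 from the most negative end. These 5 clock genes were thus at the ends of the list. The others lay further in, Nr1d2 at −0.60, Cry1 at −0.59, Per1 at −0.28 and Nr1d1 at 0.37. A correlation of at least 0.7 in size was reached by 5 of the 9 clock genes and by 0.583% of all genes, the middle 90 percent of which lay between −0.47 and 0.51.

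With Dbp as the reference, Per3 had the most positive correlation of all genes, 0.83, and Bmal1 the most negative, −0.80, the same pair and value as above. Tef and Nr1d2 ranked 3 and 4 from the positive end, each with 0.77. A size of at least 0.7 was reached by 4 of the 9 clock genes and by 0.120% of all genes.

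Outside the 10 genes, the closest to Bmal1 were given by identifier, since the files do not pair identifiers with names. ENSRNOG00000003538 on chr13:83670183-83680065 (mRatBN7.2) had a correlation of 0.92 with Bmal1 and a mean of 1.48 CPM. ENSRNOG00000013408 on chr9:41463830-41642320 had 0.90, and its level ran from 3.62 to 72.8 CPM, a range close to that of Bmal1. At the negative end, ENSRNOG00000007280 on chr10:11587916-11642755 had −0.90 with a narrow range of 35.2 to 61.5 CPM. ENSRNOG00000067479 on chr10:75154507-75211935 had −0.89 with Bmal1 and was also among the genes most like Dbp, with 0.75.

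**Figure D3:**
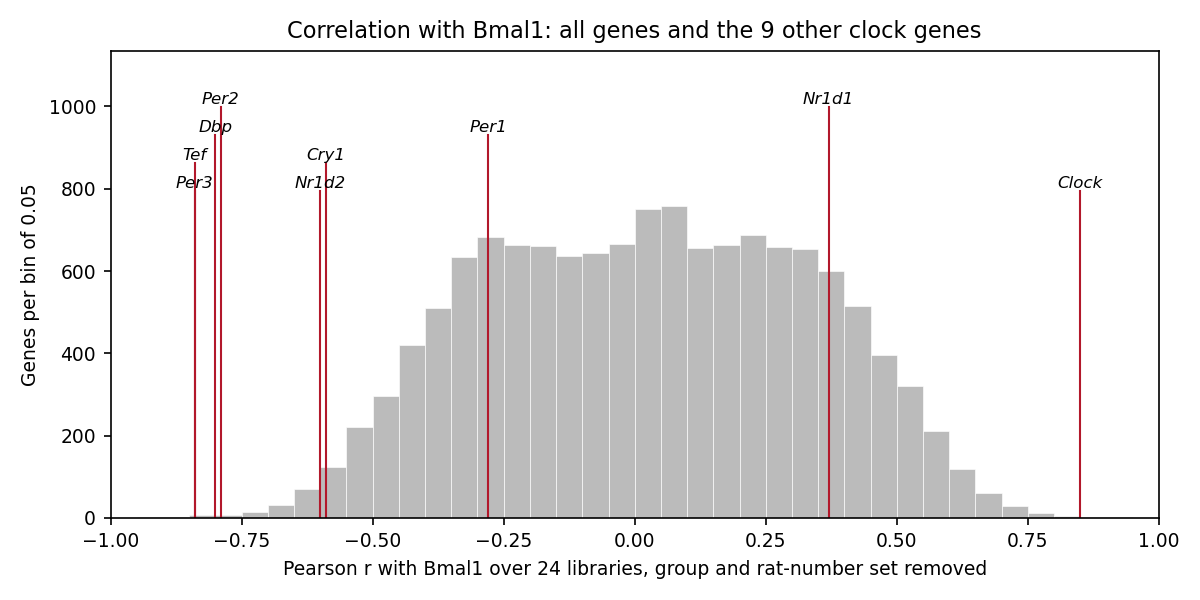
Distribution over 13382 genes of the Pearson correlation with Bmal1 across 24 libraries after removal of group and rat-number set (grey, genes per bin of 0.05), with red lines at the 9 other clock genes; line heights only separate the labels. Clock (0.85) lies at the right end and Tef, Per3, Dbp and Per2 (−0.84 to −0.79) at the left end.

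Because the high-numbered and low-numbered rats form separate clusters, correlations between pairs of clock genes were computed within each set, with permutation tests (two-sided, 100000 resamples within groups for the 17 low-numbered rats, and exact for the 7 high-numbered rats). Group means were removed in the low-numbered rats. In the 7 high-numbered rats they were not removed, and libraries were permuted across groups. The r and p values of the high-numbered rats are thus not within groups. The 17 pairs that hold Bmal1 or Dbp were tested, and the p values are not adjusted, since the genes were chosen with earlier results of these data known.

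Clock followed Bmal1 in both sets, with r = 0.81 and rho = 0.84 in the low-numbered rats (permutation p = 0.00077 and 0.00022). In the high-numbered rats r was 0.78 and rho 0.96 (exact permutation p = 0.0371 and 0.00278). Per3 ran against Bmal1 with r = −0.82 and rho = −0.86 in the low-numbered rats (permutation p = 0.00017 and 0.00034) and r = −0.84 and rho = −0.86 in the high-numbered rats (exact permutation p = 0.00298 and 0.0238). Both relations thus held within each set, with the groups mixed in the high-numbered rats. They also held in direction without the 2 libraries farthest from the median of Bmal1, with r of 0.84 and 0.95 for Clock and −0.72 and −0.88 for Per3.

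Per2 had r = −0.71 and rho = −0.70 with Bmal1 in the low-numbered rats (permutation p = 0.00891 and 0.00777). In the 7 high-numbered rats its order was the exact reverse of that of Bmal1 (r = −0.97, rho = −1, exact permutation p = 0.000198, the smallest that 7 libraries allow, and 0.000397). Tef had r = −0.87 and rho = −0.81 in the low-numbered rats (permutation p = 0.00053 and 0.00118) and r = −0.85 and rho = −0.89 in the high-numbered rats (exact permutation p = 0.0113 and 0.0123). Without the 2 farthest libraries r was −0.73 and −0.94 for Per2 and −0.76 and −0.95 for Tef.

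Dbp had r = −0.66 and rho = −0.67 with Bmal1 in the low-numbered rats (permutation p = 0.00443 and 0.00588). Without the 2 farthest libraries r was −0.46 (permutation p = 0.0839), so in this set the relation rests in part on them. In the high-numbered rats r was −0.88 and rho −0.86 (exact permutation p = 0.00278 and 0.0238), and r was −0.88 without the 2 farthest libraries. Dbp itself went with Per3, with r = 0.72 in the low-numbered rats (rho 0.67, permutation p = 0.00286 and 0.00535) and 0.99 in the high-numbered rats (rho 1, exact permutation p = 0.000198 and 0.000397). It also went with Nr1d2, with r = 0.71 in the low-numbered and 0.98 in the high-numbered rats. Without the 2 libraries farthest from the median of Dbp, r with Nr1d2 was 0.79 and 0.57.

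Over all pairs of an activator with Per1, Per2, Per3, Nr1d2, Dbp or Tef, the correlation was negative in 11 of 12 pairs in the low-numbered rats (median −0.53) and in 12 of 12 in the high-numbered rats (median −0.81). Among these 6 repressor and output genes, 15 of 15 pairs were positive in each set, with medians of 0.57 and 0.80. In the high-numbered rats, Nr1d2 with Tef had r = −0.02 without the 2 libraries farthest from the median of Nr1d2. Nr1d1 and Cry1 are not in these counts, and the 15 of 15 depends on leaving both out. With both included, 13 of 16 pairs with an activator were negative in the low-numbered rats and 14 of 16 in the high-numbered rats, and 24 of 28 and 22 of 28 pairs among the 8 other genes were positive. Cry1 had r between −0.08 and 0.71 with the 6 genes in the low-numbered rats and between −0.40 and 0.62 in the high-numbered rats. Pairs share genes and libraries, so these counts are not independent. Most pairs of an activator with another gene thus moved oppositely, and most pairs among the 8 other genes together, in both sets. Every pair of the other sign but Clock with Per1 in the low-numbered rats (r = 0.13) held Cry1 or Nr1d1. The 8 genes do not share a phase, since Per2 and then Cry1 are known to follow later than Dbp, Nr1d1 and Per3. Pairs of Nr1d1 with Per2 or Cry1 are thus not pairs of like phase. Whether the hour of collection differed between these rats was not tested, since it is not in the labels used here.

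Nr1d1 stood outside this pattern, and it was set apart in these counts after its values were seen. Its correlation with Bmal1 was 0.24 in the low-numbered rats (rho 0.22, permutation p = 0.454 and 0.466) and 0.03 in the high-numbered rats (rho 0.21, exact permutation p = 0.939 and 0.662). Without the 2 libraries farthest from the median of Bmal1 it was 0.61 in the low-numbered rats (permutation p = 0.0435). Nr1d1 ran against Cry1 in both sets, with r = −0.62 in the low-numbered rats (rho −0.55, permutation p = 0.0186 and 0.0442) and −0.93 in the high-numbered rats (rho −0.82, exact permutation p = 0.00298 and 0.0341). This pair too was picked after its values were seen, and in the low-numbered rats r was −0.25 without the 2 farthest libraries. Against Per2, Nr1d1 had r = −0.65 in the low-numbered rats and 0.03 in the high-numbered rats.

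**Figure D4:**
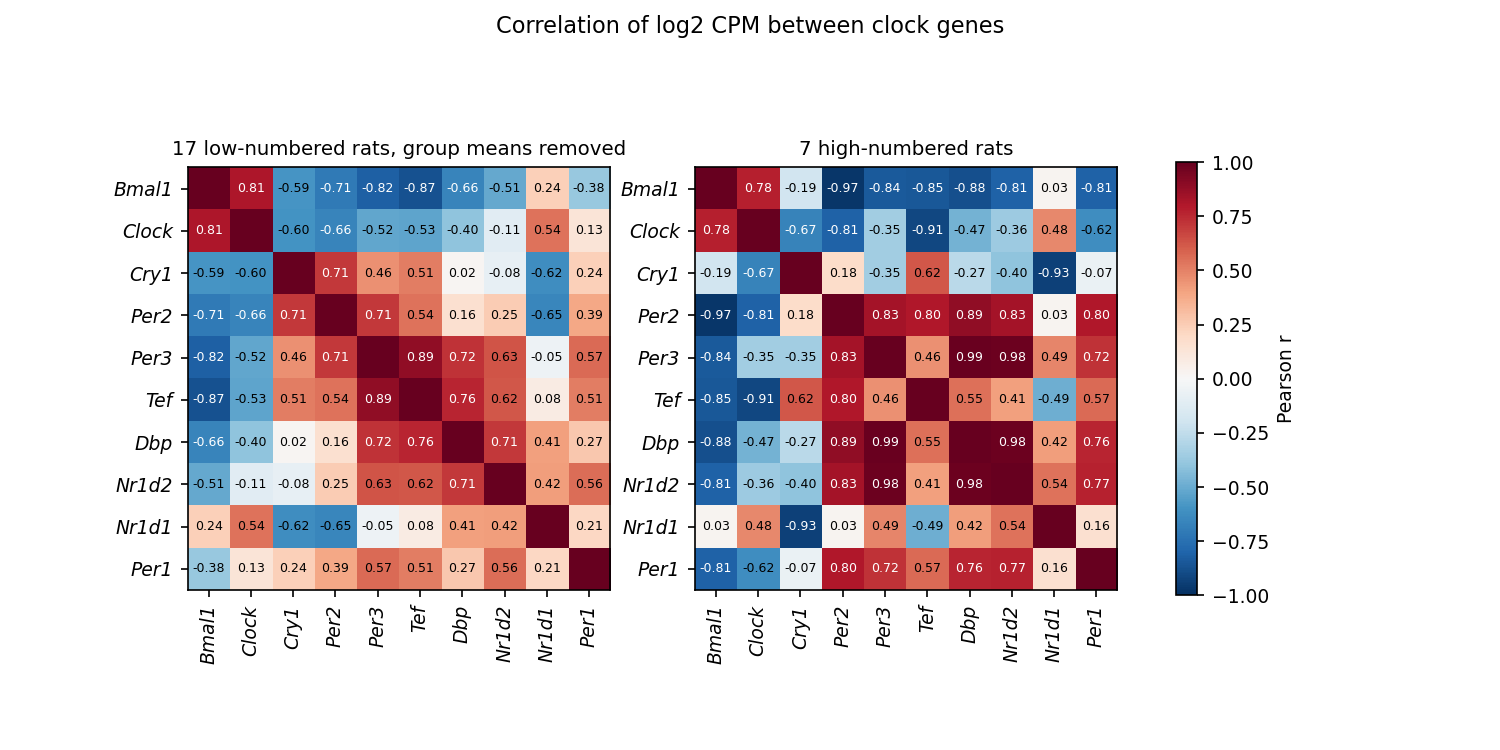
Pearson correlation of log2 CPM between all pairs of the 10 genes, on the left in the 17 low-numbered rats with group means removed and on the right in the 7 high-numbered rats without that removal (colour and printed value). In both panels the rows of Bmal1 and Clock are negative against most genes, and Per2, Per3, Tef, Dbp, Nr1d2 and Per1 are positive with each other.

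Within single groups of 6 rats the sign of each relation with Bmal1 was mostly kept, and 10 of 36 relations had an unadjusted exact permutation p below 0.05. Per2 in the denervation group (r = −0.98) and Tef in the ablation group (r = −0.99) had the smallest p that 6 rats allow (exact permutation p = 0.00139). Elsewhere Per2 had r = −0.84 in the vehicle, −0.87 in the leptin and −0.23 in the ablation group (exact permutation p = 0.0486, 0.0306 and 0.697). In the ablation group it was 0.56 without the 2 farthest libraries. Tef had r = −0.84 in the vehicle, −0.30 in the leptin and −0.59 in the denervation group (exact permutation p = 0.0292, 0.526 and 0.235). Per3 had r = −0.61 in the vehicle group, −0.91 in the leptin group, −0.68 in the ablation group and −0.87 in the denervation group (exact permutation p = 0.188, 0.00278, 0.136 and 0.0167). Dbp had r = −0.58, −0.88, −0.68 and −0.63 in the same order (exact permutation p = 0.228, 0.0236, 0.118 and 0.193). Both genes were thus negative in 4 of 4 groups. Clock was positive in the vehicle (0.70), leptin (0.89) and denervation (0.64) groups and negative in the ablation group (−0.52, exact permutation p = 0.321), where r was 0.79 without the 2 farthest libraries. In the vehicle group r turned positive without the 2 farthest libraries for Per3 (0.11) and Dbp (0.16). In the leptin group it shrank to 0.41 for Clock, −0.45 for Per2 and −0.43 for Dbp, but was −0.96 for Per3 and −0.99 for Tef. These groups mix high-numbered and low-numbered rats.

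The groups were then compared. Across the 6 comparisons of 2 groups as designed, 0 of the 10 clock genes passed an adjusted p of 0.05 (edgeR quasi-likelihood test). In leptin against vehicle 0.674% of 17347 genes (117) were called, and in ablation against leptin 3.03% (525). In denervation against leptin 0% were called (0 genes, 2836 at an unadjusted p below 0.05 and 493 by DESeq2). In ablation against vehicle 0% were called (0 genes, 1892 unadjusted, 21 by DESeq2). The other comparisons, denervation against vehicle (348 unadjusted) and ablation against denervation (778 unadjusted), had 0 called genes by edgeR and by DESeq2.

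Nr1d1 came closest in leptin against vehicle, with a log2 difference of −1.44 ± 0.35 (SE) and an adjusted p of 0.0501 by edgeR. Nr1d2 had −0.66 ± 0.20 (adjusted p = 0.0812) and Dbp −1.04 ± 0.45 (adjusted p = 0.175). These 3 outputs of the activators had an unadjusted p below 0.05. Bmal1 had 1.28 ± 0.65 (adjusted p = 0.230) and Per2 0.90 ± 0.47 (adjusted p = 0.239), with the groups overlapping for both. In bulk tissue, fewer cells of a type and less RNA per cell cannot be told apart.

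Against the same 6 leptin libraries, Nr1d1 differed by 1.04 ± 0.35 in ablation (edgeR adjusted p = 0.0967) and by 1.71 ± 0.35 in denervation (adjusted p = 0.109). These comparisons share the leptin libraries with leptin against vehicle, so the opposite sign of Nr1d1 is not separate evidence. In denervation against leptin Dbp had 1.03 ± 0.45 (adjusted p = 0.265), Nr1d2 0.49 ± 0.20 (adjusted p = 0.235) and Per2 −0.94 ± 0.47 (adjusted p = 0.320). In ablation against leptin Per2 had −1.10 ± 0.47 (adjusted p = 0.207) and Cry1 −0.76 ± 0.47 (adjusted p = 0.426). In ablation against vehicle Tef had −0.71 ± 0.28 (adjusted p = 0.457), Dbp −0.81 ± 0.45 (adjusted p = 0.471) and Bmal1 1.03 ± 0.64 (adjusted p = 0.490).

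With the rat-number set in the model, Nr1d1 (−1.40 ± 0.34, edgeR adjusted p = 0.0226) and Dbp (−1.37 ± 0.41, adjusted p = 0.0463) fell in leptin against vehicle, 2 of 10 clock genes against 6.13% of all genes called in either direction and 1.97% called lower. Nr1d1 rose in ablation against leptin (1.06 ± 0.33, adjusted p = 0.0295), 1 of 10 against 18.6% of all genes (9.64% called higher), and in denervation against leptin (1.71 ± 0.34, adjusted p = 0.0156), 1 of 10 against 6.65% (2.43% called higher). DESeq2 on the groups alone also called Nr1d1 in these comparisons, with adjusted p of 0.00413, 0.0429 and 0.00142. All genes called by DESeq2 there made up 9.29%, 7.74% and 2.84% of those tested. It called Nr1d2 as well in leptin against vehicle (adjusted p = 0.0298). Leaving out leptin replicate 5 or leptin replicate 6, the leptin libraries with the highest Nr1d1, brought Nr1d1 past the threshold in the edgeR fit as designed in each of the 3 comparisons (adjusted p from 0.0147 to 0.0414). The calls over all genes rose in the same fits. They became 395, 808 and 31 of 17530 without leptin replicate 5 and 4454, 1037 and 647 of 17548 without leptin replicate 6. Nr1d1 also passed without vehicle replicate 1 in leptin against vehicle (adjusted p = 0.0416, 349 of all genes called). Without denervation replicate 1 it passed in denervation against leptin (adjusted p = 0.0437, 17 of all genes called). The passing of Nr1d1 in these fits is thus not particular to it.

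The Nr1d1 and Per2 differences moved with the rats numbered 53 to 62. These 5 rats are 4 of the 6 leptin rats and 1 denervation rat, and denervation replicate 1 had the lowest Nr1d1 (35.2 CPM) and the highest Per2 (240 CPM) of its group. Without these 5 rats Nr1d1 differed by −0.60 ± 0.31 in leptin against vehicle, by 0.20 ± 0.30 in ablation against leptin and by 1.04 ± 0.32 in denervation against leptin (edgeR adjusted p = 1.00, 0.801 and 1.00). Of all genes 0.0109%, 0.00543% and 0% were called in these comparisons. Only 2 leptin libraries remain in this fit, and the choice was made after the data were seen. Per2 turned to −0.61 ± 0.59, 0.41 ± 0.58 and 0.27 ± 0.59 in the same comparisons. Membership of the leptin group (intact BAT) and the run of rat numbers 53 to 62 can largely not be told apart by this design. The ablation and denervation rats received leptin too.

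**Figure D5:**
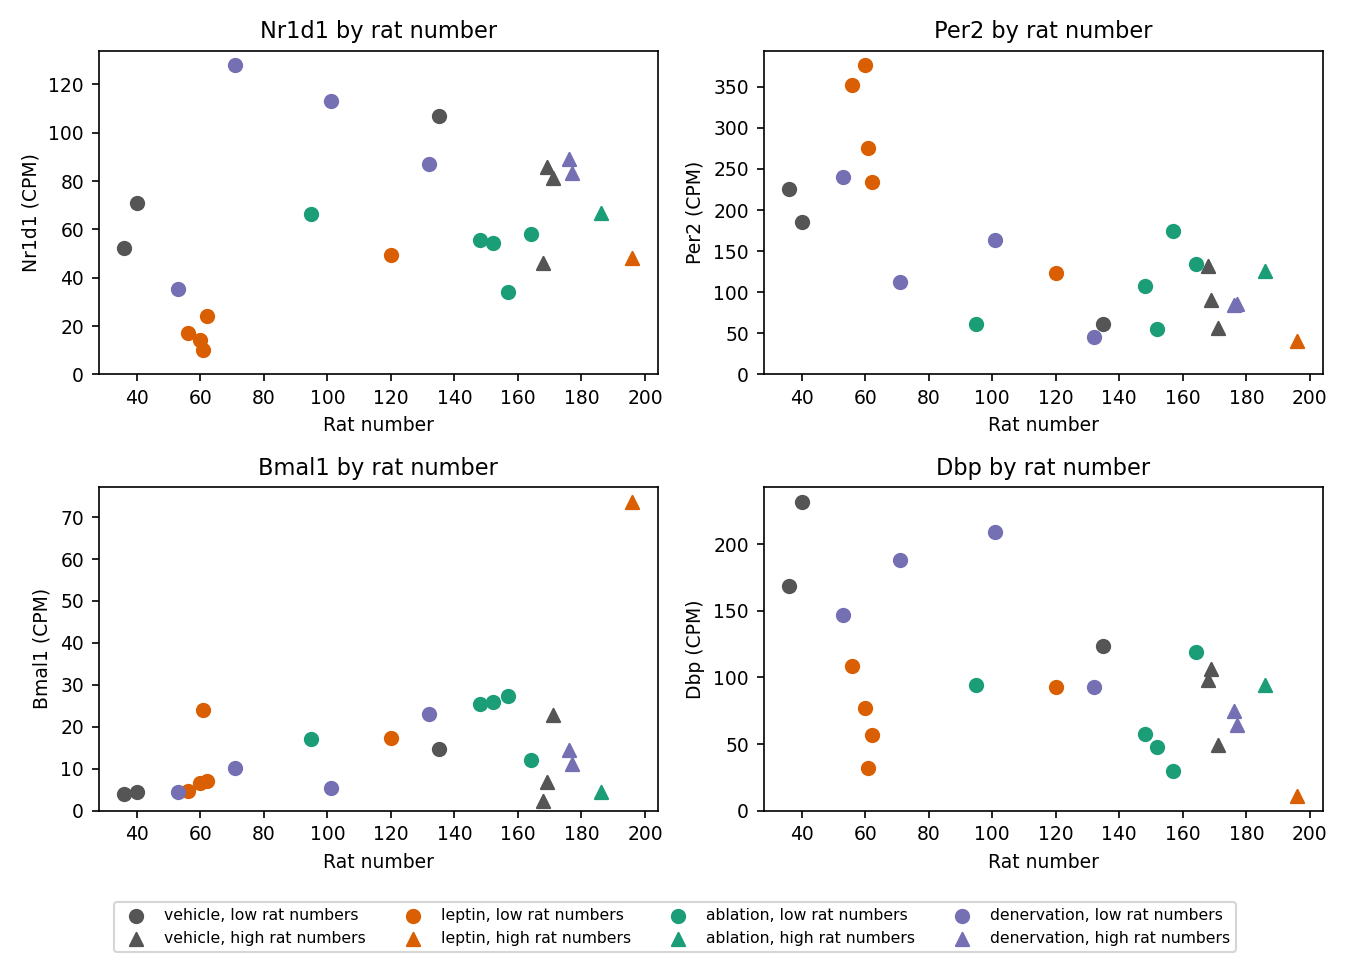
Nr1d1, Per2, Bmal1 and Dbp in CPM (vertical axes) against the rat number given in the labels (horizontal axes), each point a library, coloured by group, with triangles for the 7 high-numbered rats. The 5 rats numbered 53 to 62 hold the 5 highest Per2 values (234 to 377 CPM), and the 4 leptin rats among them the 4 lowest Nr1d1 values (10.2 to 24.2 CPM).

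The genome-wide calls also depended on which clock genes were in the model. When the log2 CPM of Bmal1 and Nr1d1 were added as covariates, an alternative chosen after the data were seen, the 117 genes called in leptin against vehicle became 0 (371 at an unadjusted p below 0.05) the 525 in ablation against leptin became 0, and in denervation against leptin 0 became 1 (0.00577%). The median size of the difference over the 117 genes went from 0.99 (median SE 0.22) to 0.60 (median SE 0.30) on the log2 scale, and 117 of 117 kept their sign. Over the 525 genes it went from 0.85 (0.20) to 0.63 (0.24). The differences thus became smaller and their errors larger.

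With the rat-number set also in the model, 1063 called genes in leptin against vehicle became 0, 3219 in ablation against leptin became 337 (1.94%) and 1154 in denervation against leptin became 1. The median size went from 0.65 to 0.32, from 0.64 to 0.43 and from 0.61 to 0.21 in these 3 comparisons. Of the genes called in ablation against leptin, 246 were called in both fits. With Bmal1 alone as the covariate and no set term, the calls in leptin against vehicle rose from 117 to 1055 (6.08%). They went from 525 to 419 (2.42%) in ablation against leptin and stayed at 0 in denervation against leptin. Nr1d1 differs between the leptin group and the others, so as a covariate it takes up part of these group differences whatever their cause. No gene outside the clock was tried in the same way. A group effect and a clock effect on these genes cannot be told apart by such fits.

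Between the high-numbered and low-numbered rats, 6 of the 10 clock genes were called with group in the model, against 67.2% of all 17347 genes, so the share is near the background. They were 4 called higher, against 33.2% of all genes, and 2 called lower, against 34% of all genes. The boundary between the sets was itself read from these libraries. Clock was higher in the high-numbered rats by 1.02 ± 0.15 on the log2 scale (edgeR adjusted p = 3.11e-06), Cry1 by 1.11 ± 0.27 (adjusted p = 0.000773), Per1 by 0.62 ± 0.23 (adjusted p = 0.0189) and Tef by 0.52 ± 0.19 (adjusted p = 0.0157). Dbp was lower, at −0.93 ± 0.33 (adjusted p = 0.0154), as was Per3, at −0.73 ± 0.32 (adjusted p = 0.0466). Repressor and output genes were thus called on both sides, and the activator Clock on the higher side. The sets also differed in a library measure, the length gradient described below. Bmal1 itself had 0.75 ± 0.49 (adjusted p = 0.186) and −0.01 ± 0.54 without leptin replicate 6. Per3 fell under the threshold in 16 of the 24 fits that leave out a library, Dbp without leptin replicate 6 (adjusted p = 0.0605), Tef without ablation replicate 6 (0.208) and Per1 without denervation replicate 6 (0.0554). Per2 passed without vehicle replicate 3, ablation replicate 3, ablation replicate 6 or denervation replicate 4 (adjusted p from 0.0231 to 0.0476).

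With the rat number as a linear term in place of the 2 sets, 5 clock genes were called, against 63.7% of all genes. Bmal1 rose by 1.29 ± 0.37 on the log2 scale per 100 rat numbers (edgeR adjusted p = 0.00462) and Clock by 0.97 ± 0.13 (adjusted p = 1.07e-06). Per2 had −1.11 ± 0.28 (adjusted p = 0.00134), Dbp −1.02 ± 0.29 (adjusted p = 0.0037) and Per3 −0.97 ± 0.27 (adjusted p = 0.00318). In that fit the activators were called on the higher side and 2 repressors and an output on the lower. Of all 17347 genes, 5602 were called higher and 5453 lower, so these counts are near the background. Per1 (0.48, adjusted p = 0.0541), Cry1 (0.51, adjusted p = 0.141) and Tef (0.17, adjusted p = 0.463) did not pass in it.

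Library measures were set beside the clock genes. Total reads, the mitochondrial share and the length gradient of a library (how far the longest genes lie above the shortest in centred log2 CPM) were correlated with Bmal1 and Nr1d1 in each set, 12 relations in all. The smallest unadjusted p was 0.0319 (exact permutation), for Nr1d1 with the length gradient in the 7 high-numbered rats (r = 0.74, rho = 0.71 with exact permutation p = 0.0881), and 0.383 after Benjamini-Hochberg adjustment. For Bmal1 the correlations in the low-numbered rats were 0.23 with total reads, 0.12 with the mitochondrial share and −0.05 with the length gradient (permutation p = 0.401, 0.622 and 0.860). The length gradient differed between the sets themselves. It ran from 0.171 to 0.517 in the high-numbered rats and from −0.425 to 0.177 in the low-numbered rats. Between the sets, Clock (exonic length 7621 bases) was called higher and Dbp (2858 bases) lower. Per3 (7220 bases) was called lower, however, and Cry1 (2922 bases) higher. Whether the gradient contributes to the differences between the sets was not tested.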

How the data were processed

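The authors deposited whole-number read counts per gene with gene positions and exonic lengths. The tools named per the submitters' processing notes are STAR 2.7.10a, featureCounts 2.0.2, DESeq2 and R 4.4.1. Per the file headers, counts were made with featureCounts 2.0.6 on Ensembl 113 of mRatBN7.2, with no strand option. The value 2 (19013 entries) is more frequent than the value 1 (5161 entries), the pattern that separate counting of mates gives, so counts are taken as reads. Another 5 sample columns match no listed sample and were not used.

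Counts were tested in edgeR 4.0.16 (R 4.3.3; filterByExpr, TMM, robust quasi-likelihood fit, adjusted p below 0.05, SE from the F statistic), with all 24 libraries in 1 model. log2 CPM used a prior count of 2. Correlations were computed in Python 3.11.15 with scipy 1.17.1 and numpy 2.4.6. Alternatives were DESeq2 1.42.0, other scalings and filters, the replicate block, other covariates and each library left out. The fits were tested on simulated counts. The 10 genes and the lists were chosen with earlier results of these data known.

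All 10 genes are named. Other genes were to be the 3 most positive and 3 most negative correlations with Bmal1 and with Dbp, of which only 2 of each sign for Bmal1 are printed because identifiers carry no names here. The reference paired 0 of the 30562 identifiers with a symbol, so lists of further clock and marker genes were not used, and the tissue label was not checked against markers.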

Additional observations from a re-analysis of the deposited data

Results flagged for a closer look

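In 5 of 40 sets of 6 libraries (10 genes in 4 groups), the lowest library lay far from the nearest of the others by Dixon's criterion at the 95 percent level, which chance alone meets in about 1 set in 20. Per3 in leptin replicate 6 was 9.00 CPM, with the other leptin libraries at 62.2 to 112 CPM. This is also the library with the highest Bmal1. Nr1d1 was 35.2 CPM in denervation replicate 1, with the other libraries of that group at 83.3 to 128 CPM, and 34.1 CPM in ablation replicate 4, with the others at 54.5 to 66.9 CPM. Tef was 58.8 CPM in denervation replicate 4, against 99.4 to 128 CPM, and that library had the highest Bmal1 of its group, 23.0 CPM. Per1 was 64.2 CPM in vehicle replicate 3, the lowest of all 24 libraries, against 153 to 229 CPM.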

How the results depend on the processing

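Clock genes called along Bmal1 (5 of 9) became 0 with no set term, 0 in the low-numbered rats alone, 3 without rats 53 to 62 and 4 with the replicate block (Per2 lost, slope −0.52, adjusted p = 0.123; 13 of all 17346 genes called), and 2 to 5 with a library left out. Along Dbp (2 of 9) they became 4 by DESeq2 (13 of all genes called), 4 with no set term (4539 of all 17346), 1 with the replicate block (1 of all), 0 in the low-numbered rats and 0 to 3 with a library left out. In leptin against vehicle 0 became 2 by DESeq2, 1 with its size factors (204 of all 17347 genes called), 2 with the set term, 2 with the replicate block (3635 of all) and 2 with Bmal1 as a covariate (0 to 2 leave-one-out). In ablation against leptin 0 became 1 by DESeq2, with the set term, with the replicate block and with the set term plus Bmal1 and Nr1d1, and 2 in the low-numbered rats (2033 of all 17890 genes called; 0 to 1 leave-one-out). In denervation against leptin 0 became 1 by DESeq2, the set term and the replicate block (0 to 1 leave-one-out). The other 3 group comparisons stayed at 0 in every fit with a library left out. Between the sets, 6 became 1 with the replicate block (6154 of all 17347 genes called), where Bmal1 turned to −0.54, 5 with a linear rat number, where Bmal1 and Per2 gained a call and Cry1, Tef and Per1 lost it, and 4 to 7 leave-one-out. Without a library, the low-numbered r ranged from −0.78 to −0.57 (Bmal1 with Dbp), 0.06 to 0.53 (Nr1d1), −0.88 to −0.76 (Per3), −0.92 to −0.83 (Tef) and 0.70 to 0.85 (Dbp with Tef). Without the 2 farthest libraries, r was −0.46 for Dbp and 0.61 for Nr1d1.

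With Bmal1 and Nr1d1 as covariates, without and with the set term, Dbp in leptin against vehicle turned to 0.22 and 0.01, Per2 to 0.10 and 0.03 in ablation against leptin and to 0.22 and 0.22 in denervation against leptin, and Nr1d2 there to −0.07 and −0.07. Dbp in ablation against vehicle turned to 0.14 without the set term. Without rats 53 to 62, Per2 turned to −0.61, 0.41 and 0.27 in the 3 leptin comparisons. Bmal1 between the sets ranged from −0.01 (without leptin replicate 6) to 1.06. The causes were not tested. All genes called in leptin against vehicle (117), ablation against leptin (525) and denervation against leptin (0) became 1610, 1342 and 493 by DESeq2, 3635, 1021 and 512 with the replicate block, and 3, 234 and 0 with no filter on low counts. The main fits did not treat samples as paired by replicate number. Deviations of 36 same-numbered pairs, with group but not rat-number set removed, correlated from −0.34 to 0.73, 24 of them over 0.1. Of the 24 libraries, 9 correlated best with their own number. Every replicate 6 was a high-numbered rat, so replicate number and set overlap, and the source of these correlations was not tested. Nr1d1 differences under the replicate block were −1.52, 1.18 and 1.83. Depth was high for all 10 genes; the number of rats limits precision.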
